A study of Mus musculus with 2 samples.

Results

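The genes described here encode the nuclear part of the mitochondrial respiratory chain. They were matched by symbol: the Nduf, Sdh, Uqcr, Cox4 to Cox8, Cyc1, Cycs and Atp5 families. Earlier results of these data were known when they were chosen. The rule found 92 of the 23284 genes listed in small intestinal epithelial cells of miR-215-/- mice and of miR-215+/+ (WT) mice. There was 1 mRNA library for each genotype. No source used here gives strain, age, sex or the number of animals in a library. With a single library of each kind nothing could be checked against a replicate, and no test was run. Levels are in FPKM, a fragment count divided by transcript length and library depth, and "higher" and "lower" describe the miR-215-/- library relative to the WT library.

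The respiratory chain sits in the inner mitochondrial membrane. Complex I takes electrons from NADH and complex II takes them from succinate, and both pass them through ubiquinone to complex III. Cytochrome c carries them on to complex IV, which reduces oxygen. Complexes I, III and IV pump protons, and complex V, the ATP synthase, uses the proton gradient to make ATP. Absorptive enterocytes depend on this ATP for transport driven by the sodium gradient. A few core subunits are encoded in the mitochondrial genome, and all others in the nucleus. None of the 13 mitochondrially encoded subunit genes was among the listed symbols, so the nuclear part alone is described.

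Of the 92 matches, 85 encode subunits or cytochrome c: 36 of complex I, 4 of complex II, 9 of complex III, 20 of complex IV with its tissue isoforms, 15 of complex V, and Cycs. Ndufa4 was counted with complex IV, where its protein is now placed, and so was its relative Ndufa4l2. Cox7a2l, which encodes a supercomplex factor, was also counted with complex IV. The other 7 matches go against the label of subunits. Ndufaf1, Ndufaf2, Ndufaf3, Ndufaf4 and Atp5sl, now named Dmac2, are assembly factors of complex I, the last known from human cells. Atp5s encodes a coupling factor, and Cox4nb, now named Emc8, encodes a subunit of the endoplasmic reticulum membrane protein complex that only shares the first letters of its older name.

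The microRNA that the knockout removes is shown first, because its seed, bases 2 to 8 in capitals, decides which transcripts it can pair with. miR-192 has the same seed and is encoded elsewhere. Both sequences are from RefSeq on GRCm38.p6, chr1:185313610-185313630 and chr19:6264857-6264877, both on the plus strand.
miR-215-5p: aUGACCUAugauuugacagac
miR-192-5p: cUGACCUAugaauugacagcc
Mir215 itself was listed at 0 FPKM in the miR-215-/- library and at 137 FPKM in the WT library. A hairpin this short takes a high value from very few fragments, and the libraries were made from polyadenylated RNA, so these values are no check of the knockout.

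The 3' UTRs of these genes carried almost no match to that seed. Among 84 members with an annotated 3' UTR in GENCODE M21 and at least 1 FPKM, 1 held the heptamer complementary to the seed, Ndufb8, which encodes an accessory subunit of the membrane arm of complex I. Its site, with the heptamer in capitals and 8 bases on each side, starts at base 125 of a 3' UTR of 1643 nt on chromosome 19.
Ndufb8 site: gaaaatcaTAGGTCAtctcactg
Ndufb8 was at 285 FPKM in the miR-215-/- library and 367 FPKM in the WT library, a log2 ratio of -0.36. It was thus lower in the library without the microRNA. Across all 10996 genes with an annotated 3' UTR and at least 1 FPKM, 7.01% held the heptamer. The members' 3' UTRs are short, with a median of 301 nt against 1270 nt for all genes, and among all genes whose 3' UTR is no longer than 500 nt the share was 0.825%, beside 0 of 57 members in that class, which does not include Ndufb8.

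The subunits were abundant and most of them were slightly lower in the miR-215-/- library. All members added up to 32535 FPKM, or 4.76% of the total, in the miR-215-/- library, and to 38374 FPKM, or 5.11%, in the WT library. Of the 92, 85 reached 1 FPKM in at least 1 library, 78 of them subunits or cytochrome c. Log2 ratios were taken as log2(FPKM + 1) in the miR-215-/- library minus the same in the WT library. Their median over the 85 members was -0.20, from -0.74 for Sdhc to 0.34 for Cox6b2, beside a median of -0.048 over all 11504 genes with at least 1 FPKM. No member was 2-fold lower or 2-fold higher, beside 2.04% and 1.34% of all those genes, or 3.38% in either direction. With the libraries scaled to equal sums, 185 genes were 2-fold lower and 209 were 2-fold higher, against 235 and 154 as deposited, and still no member was. A smaller limit was also used, on the same scale: at least 20% lower, or at least 25% higher. Of the 85 members, 23 were at least 20% lower and 1 was at least 25% higher, which is 27.1% and 1.18%, beside 20.6% and 14.1% of all genes. With equal sums 6 members were at least 20% lower and 2 at least 25% higher. At the lower limit the member just past it was Ndufa7, with a log2 ratio of -0.33, and the member just short of it was Atp5h, with -0.31.

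**Figure D1:**
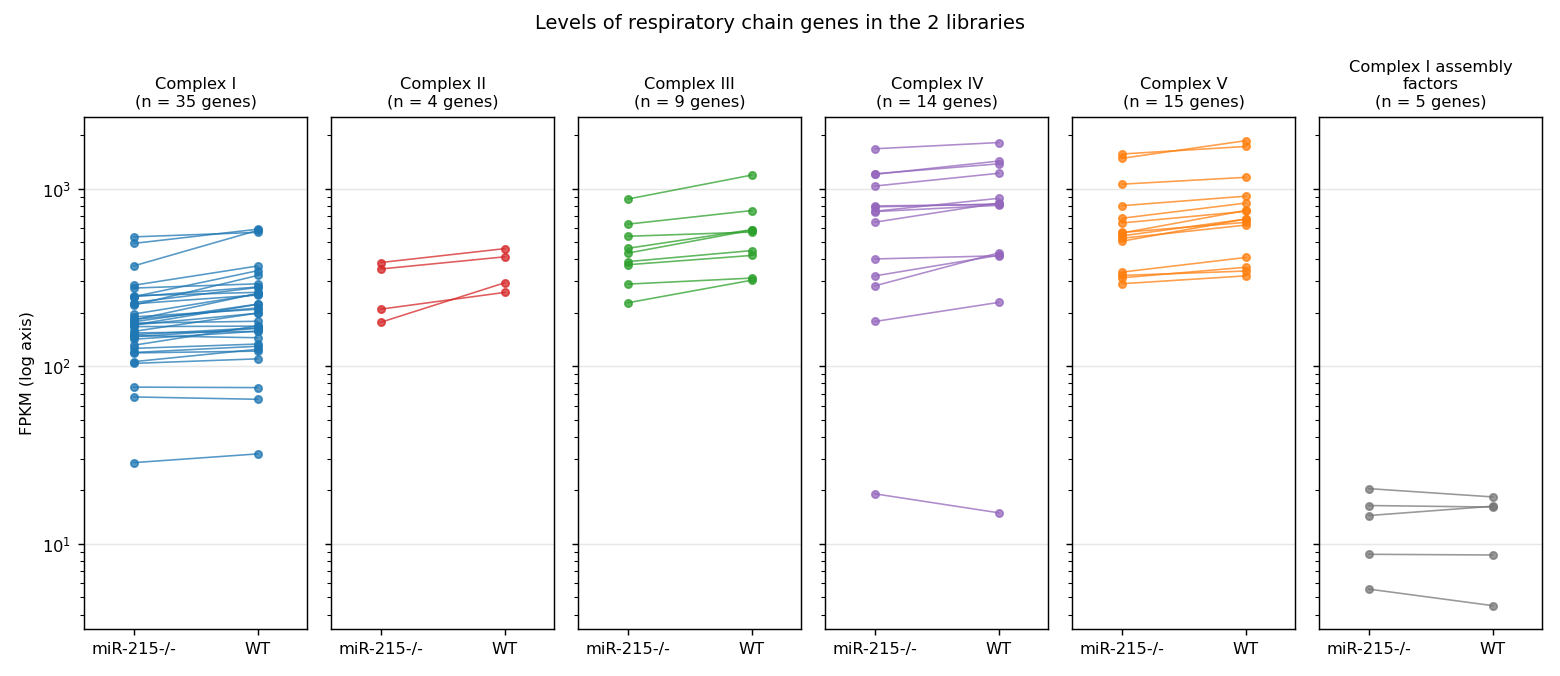
FPKM on a log axis of genes with at least 1 FPKM, in the miR-215-/- library (left point) and in the WT library (right point), with 1 line per gene. There is 1 panel for each of complexes I to V and 1 for the assembly factors, and Cycs, Atp5s and Cox4nb are not drawn. Most lines climb slightly to the right. Of all 85 members, drawn or not, 77 were lower in the miR-215-/- library. The 5 assembly factors sit at 5.57 to 20.5 FPKM in the miR-215-/- library, below the subunits other than Cox6b2 at 19.1 FPKM.

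The size of the shift, and the sign of single members near 0, depended on how the libraries were scaled to each other, and the sign of the members' median did not. With the values as deposited, 77 of the 85 members had log2 ratios below 0, which is 90.6%, beside 56% of all genes. With the miR-215-/- values multiplied by 1 factor to give equal sums, 56 of the 85 were below 0, and with equal upper quartiles 58. Equal sums moved the median over all genes to 0.074 and the members' median to -0.062. Relative to the median of all genes, the medians of complexes I to V were negative under every setting tried. As deposited, 71 of the 85 members were below the median of all genes, beside 50% of all genes by definition.

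The median of the subunits was close to that of other abundant genes. Of the 85 members, 74 averaged at least 100 FPKM over both libraries, and their median log2 ratio was -0.22. The 1049 other genes at that level had a median of -0.18, with 75.9% below 0, and 73 of the 74 members were below 0. At least 20% lower were 31.1% of these members and 33.8% of the other genes at that level, but with equal sums 8.11% and 20.8%, and with equal upper quartiles 9.46% and 22.6%. What differed more was the spread: the interquartile range of the log2 ratio was 0.23 for the 74 members and 0.40 for the other genes, of which 5.62% were 2-fold apart. A narrow spread was not particular to the respiratory chain: the interquartile range was 0.25 for all 85 members, 0.24 for 76 mitochondrial ribosomal protein genes and 0.13 for 80 cytosolic ones, against 0.44 for all genes.

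Over genes of all levels, transcript length moved with the log2 ratio as well, and respiratory chain transcripts are short. Of the 85 members, 49 had a median annotated transcript under 1000 nt, as had 8.81% of all genes. Among other genes the median log2 ratio was -0.19 from 500 to under 750 nt, -0.13 from 1000 to under 2000 nt and 0.037 at 4000 nt and more. Other genes of at least 100 FPKM showed no such steady trend, with -0.19, -0.23 and -0.063 in the same 3 classes. The 26 members from 500 to under 750 nt had a median of -0.21, and the 26 members from 1000 to under 2000 nt had -0.19. The 9 members from 2000 to under 4000 nt had -0.13, against -0.045 for other genes of all levels. The gap was widest in the shortest class. There the 11 members under 500 nt had a median of -0.35, against -0.036 for 160 other genes of that length, whose interquartile range was 1.28. After removal of the running median over length, the members' median was -0.065 relative to all genes. The part of length and of level in the shift was not tested further.

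**Figure D2:**
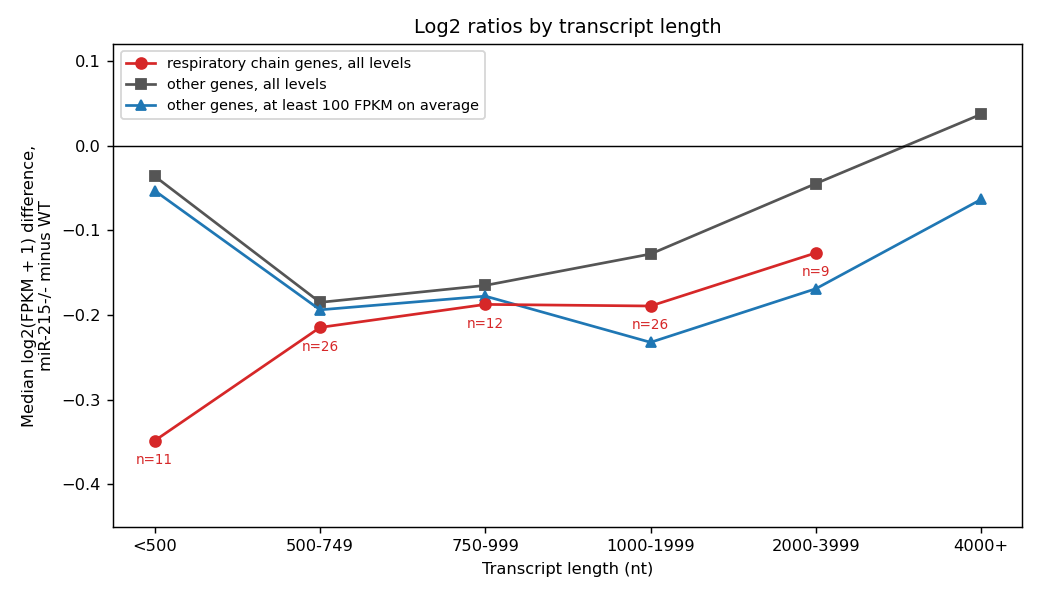
Median log2(FPKM + 1) difference, miR-215-/- minus WT, by transcript length in nt, for respiratory chain genes (circles, with the number of genes), other genes of all levels (squares) and other genes with at least 100 FPKM on average (triangles). Members lie near the other genes of all levels from 500 nt to under 1000 nt. They lie below them from 1000 to under 2000 nt, at -0.19 against -0.13, and from 2000 to under 4000 nt, at -0.13 against -0.045. The gap is widest under 500 nt, at -0.35 against -0.036. The 1 member of 4000 nt and more, Cox4nb, is not drawn.

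The precision of a fold was taken from the steps between low FPKM values, which show what 1 fragment was worth. One fragment over 1 kb of effective length was worth 0.0995 FPKM in the miR-215-/- library and 0.1035 FPKM in the WT library. The 85 members rested on a median of 1698 estimated fragments in the miR-215-/- library and 1911 in the WT library, against 290 and 293 over all genes. Exact 95% Clopper-Pearson intervals of the FPKM fold, miR-215-/- over WT, were made from these numbers. They were taken on the deposited scale. Scaling to equal sums multiplies every bound by 1.098, so the counts given here hold on the deposited scale only. The intervals cover counting error only and say nothing of variation between animals. The interval lay below 1 for 59 of the 85 members, or 69.4%, and above 1 for none, beside 30.2% and 19.6% of all genes, which are read less deeply.

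**Figure D3:**
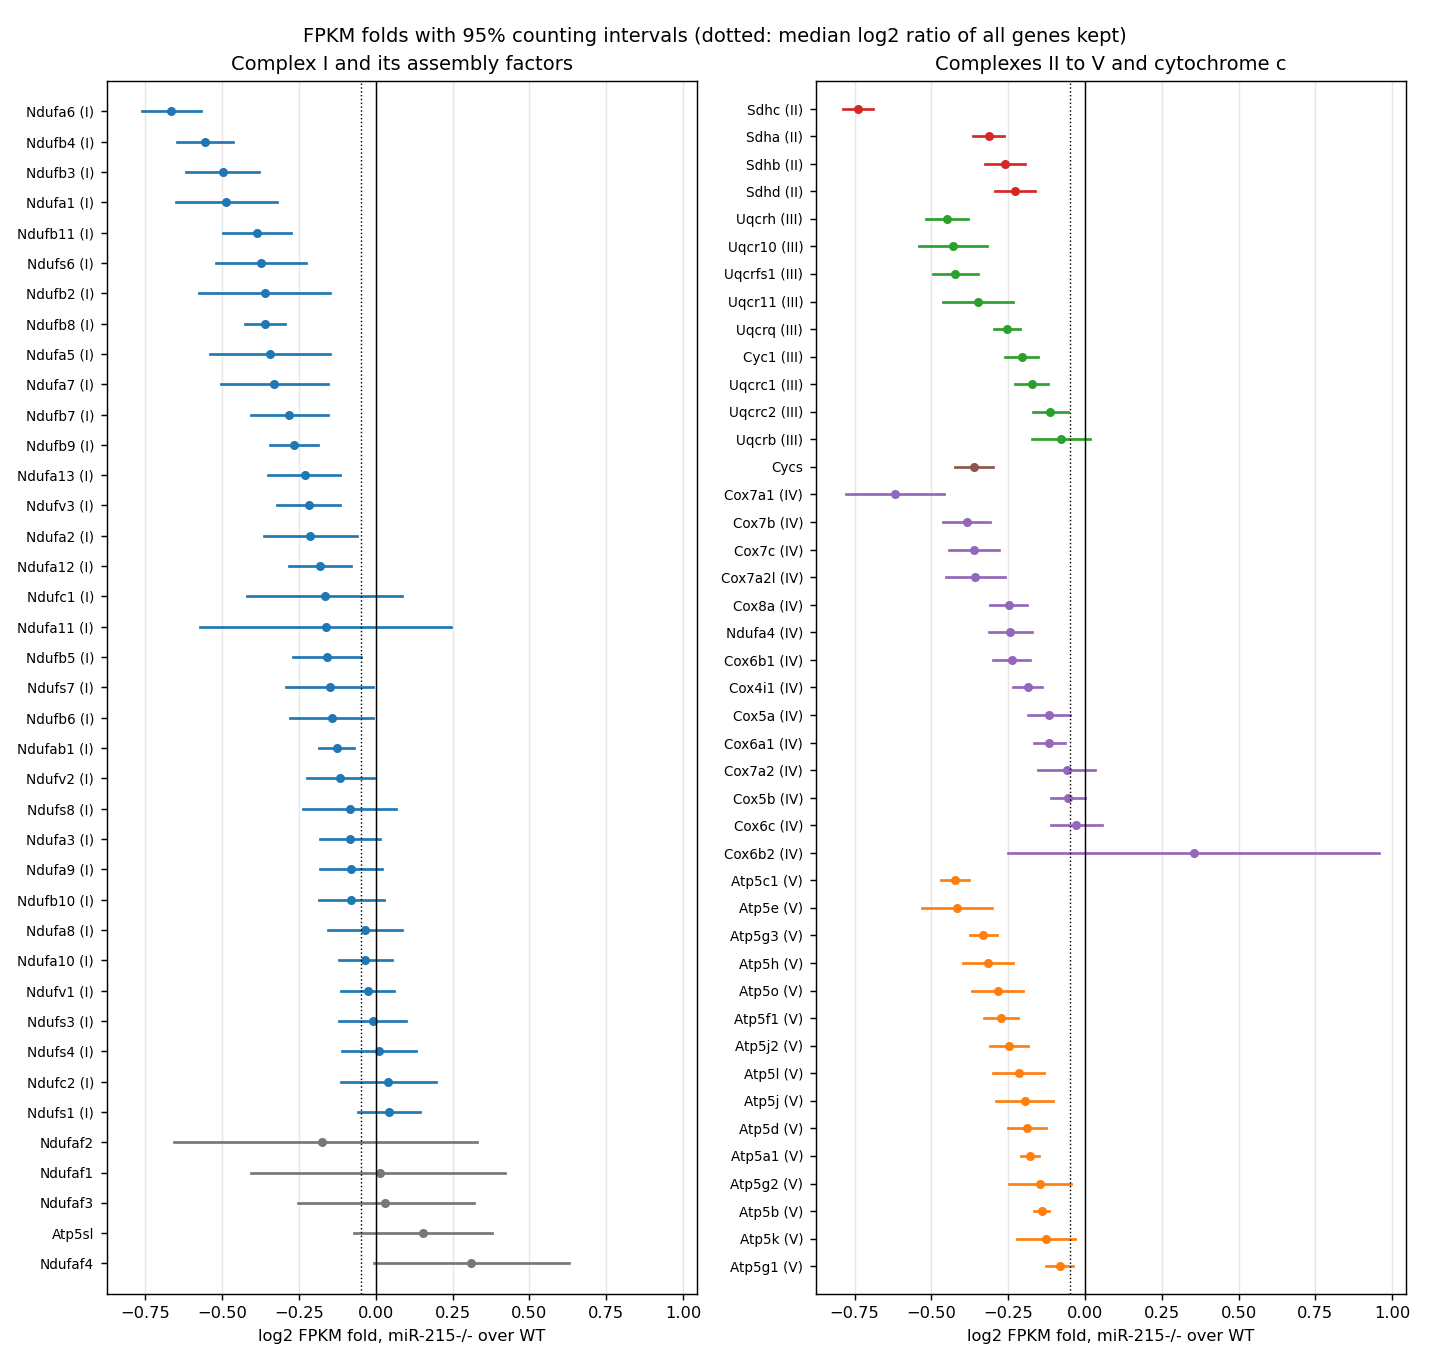
Log2 of the FPKM fold, miR-215-/- over WT, of the members named on the axes, with the exact 95% counting interval of each as a bar. The solid line marks no difference and the dotted line the median log2 ratio of all genes, -0.048. Sdhc, Ndufa6 and Cox7a1 lie farthest to the left, and Cox6b2 farthest to the right with an interval that includes no difference.

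Complex I had the median nearest to level of the 5 complexes. Its 35 measured subunits had a median log2 ratio of -0.16, with 32 below 0 and 10 at least 20% lower, and their summed FPKM were 6759 in the miR-215-/- library and 8008 in the WT library, a ratio of 0.844, below those of complexes IV and V. With equal sums 21 of the 35 were below 0. The lowest ratio was that of Ndufa6, an accessory subunit of the matrix arm (chromosome 15, 82350140 to 82354322 of GRCm38). Ndufa6 was at 367 FPKM in the miR-215-/- library and 582 FPKM in the WT library, a fold of 0.631 (counting interval 0.590 to 0.675). Ndufb4, of the membrane arm, was at 221 and 324 FPKM in the miR-215-/- and WT libraries (0.681, 0.639 to 0.725), and Ndufb3 at 182 and 257 FPKM (0.708, 0.652 to 0.768). Both belong to the NDUFB family of the distal membrane arm. The X-linked Ndufa1, a small membrane subunit needed for assembly in mammalian cells, was at 246 FPKM in the miR-215-/- library and 345 FPKM in the WT library. The other 6 at least 20% lower were Ndufb11, Ndufs6, Ndufb2, Ndufb8, Ndufa5 and Ndufa7, with folds from 0.765 to 0.795.

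The subunits of complex I that carry out electron transfer were nearly level between the libraries. These are the 7 nuclear-encoded core subunits, which include those that hold the flavin and iron-sulphur clusters. Their median log2 ratio was -0.062, with a range from -0.15 for Ndufs7 to 0.043 for Ndufs1, and their summed FPKM were 1003 in the miR-215-/- library and 1048 in the WT library. With equal sums their median was on the other side of 0, at 0.072, and 6 of the 7 were above 0. Ndufs1, which binds several of the iron-sulphur clusters, was at 67.2 FPKM in the miR-215-/- library and 65.2 FPKM in the WT library. Ndufv1, which binds the flavin and NADH, was at 154 and 157 FPKM in the miR-215-/- and WT libraries. Ndufs3 was at 167 FPKM in the miR-215-/- library and 168 FPKM in the WT library, a fold of 0.994 (0.921 to 1.07). Of the 7 intervals, 2 lay below 1, those of Ndufs7 and Ndufv2, with upper bounds of 0.994 and 0.996.

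Accessory subunits of complex I were lower by more. The 16 measured accessory subunits named Ndufa, Ndufab, Ndufs or Ndufv had a median of -0.20, and the 12 named Ndufb or Ndufc, which lie in the membrane arm, had a median of -0.27. With equal sums these medians were -0.063 and -0.14. The accessory transcripts are shorter than those of the core, with medians of 714 and 718 nt against 1312 nt. After removal of the length trend the medians, taken relative to all genes, were -0.061 and -0.10 for the accessory groups and 0.054 for the core. Ndufa3, the most abundant subunit of complex I by the mean of both libraries, was at 535 FPKM in the miR-215-/- library and 567 FPKM in the WT library, with an interval of the fold from 0.881 to 1.01. Ndufs4, whose loss gives a mouse model of Leigh syndrome, was at 76.3 and 75.8 FPKM in the miR-215-/- and WT libraries. Ndufc2, of the membrane arm, was at 149 and 145 FPKM. Ndufs4, Ndufc2 and Ndufs1 were the 3 subunits of the complex with log2 ratios above 0. Ndufa11, a membrane subunit, was the least abundant of those measured, at 28.7 FPKM in the miR-215-/- library and 32.1 FPKM in the WT library.

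One subunit of complex I was almost missing from both libraries. Ndufs5, an accessory subunit of the membrane arm (chromosome 4, 123712710 to 123718202), was listed at 0.111 FPKM in the miR-215-/- library and 0.0112 FPKM in the WT library, under 1 fragment in each. No fold was taken. A processed copy of it, BC002163 (chromosome 16, 42955631 to 42955949), was listed separately at 2.03 FPKM in the miR-215-/- library and 48.5 FPKM in the WT library, about 2 and 56 fragments. The copy is 319 nt long and identical to the Ndufs5 transcript of 525 nt at 99.4% of its bases, with 2 mismatches, T173C and A197G, where the first base is that of Ndufs5 and positions count from 1 at the start of its transcript. Fragments of the shared stretch that cover neither mismatch fit either gene equally. Both are shown from the GENCODE transcripts as they stand around the first mismatch, which is in capitals.
Ndufs5: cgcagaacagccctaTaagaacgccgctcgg
BC002163: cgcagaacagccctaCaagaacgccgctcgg
No source used here says how the authors assigned such shared fragments, so neither value can be read as the level of Ndufs5.

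Other members had copies of this kind as well, and the share over all genes was not counted. With a limit of 95% identity over 80% of the shorter transcript and at least 200 nt, 21 of the 92 members had at least 1 annotated copy elsewhere in the genome, 41 copies in all. Atp5l had 9 of them, and Cycs and Atp5h had 4 each. Only BC002163 and Gm10012, a copy of Cox7c, were among the listed genes, Gm10012 at 3.61 FPKM in the miR-215-/- library and 3.75 FPKM in the WT library. Values of the 21 members are uncertain to the extent that fragments fell on copies. Ndufb3, Ndufb4, Cox7b, Cox7c, Atp5c1, Atp5g1 and Atp5g2 are among the 21.

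Complex II had the lowest median of the 5 complexes, -0.29 over its 4 subunits, and 1 subunit stood apart. The complex is succinate dehydrogenase, the member of the chain that also works in the tricarboxylic acid cycle. Sdhc, one of its 2 membrane anchors (chromosome 1, 171127165 to 171150603), was at 177 FPKM in the miR-215-/- library and 295 FPKM in the WT library, a fold of 0.599 (0.579 to 0.620). It had the lowest ratio of all members. The other anchor, Sdhd, was at 353 FPKM in the miR-215-/- library and 413 FPKM in the WT library, a fold of 0.854 (0.817 to 0.893). The flavoprotein gene Sdha was at 209.5 and 260.3 FPKM in the miR-215-/- and WT libraries, a fold of 0.805 (0.777 to 0.834). The iron-sulphur subunit gene Sdhb was at 383 and 459 FPKM, a fold of 0.835 (0.799 to 0.874). The interval of Sdhc did not overlap those of the other 3. With equal sums all 4 stayed below 0, with a median of -0.15.

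Sdhc lies on the chromosome of the deleted microRNA, 14.2 Mb from Mir215. The annotation gives Sdhc transcripts from 298 to 3171 nt, and a gene-level FPKM does not show which of them contributed. Whether position or transcript choice moved with the Sdhc value was not tested.

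Complex III, the cytochrome bc1 complex, had 9 subunits, all below 0 with a median of -0.25. With equal sums 7 of the 9 stayed below 0, Uqcrc2 and Uqcrb being the exceptions. Its most abundant transcript, Uqcrh, which encodes the hinge protein that binds cytochrome c1, was at 872 FPKM in the miR-215-/- library and 1191 FPKM in the WT library, a fold of 0.733 (0.699 to 0.769). The small subunit gene Uqcr10 was at 433 and 583 FPKM in the miR-215-/- and WT libraries. Uqcrfs1 encodes the Rieske iron-sulphur protein, one of the catalytic subunits, and was at 228 and 305 FPKM, a fold of 0.746 (0.709 to 0.785). The other nuclear-encoded catalytic subunit gene, Cyc1, for cytochrome c1, was at 388 FPKM in the miR-215-/- library and 447 FPKM in the WT library, a fold of 0.867 (0.835 to 0.900). The core protein genes Uqcrc1, at 373 and 420.3 FPKM in the miR-215-/- and WT libraries, and Uqcrc2, at 290 and 313 FPKM, were nearer to level, with folds of 0.887 and 0.925. Uqcrb, for the small subunit that binds near the ubiquinone site, was at 539 FPKM in the miR-215-/- library and 569 FPKM in the WT library, and its interval of 0.887 to 1.01 included no difference.

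Cytochrome c, the soluble carrier between complexes III and IV that also triggers apoptosome formation when released, is encoded by Cycs. It was at 131 FPKM in the miR-215-/- library and 169 FPKM in the WT library, a fold of 0.779 (0.746 to 0.813). Its fold lay between those of Uqcrh and Cyc1, the partners that bind it on the side of complex III, and its 4 annotated copies limit what its value means.

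Complex IV, cytochrome c oxidase, had 14 measured genes with a median of -0.21, 13 of them below 0. With equal sums 8 of the 14 were below 0. The most abundant was Cox6a1, the liver-type subunit VIa, at 1674 FPKM in the miR-215-/- library and 1815 FPKM in the WT library. Among the general subunits the lowest ratios were those of Cox7b, at 322 FPKM in the miR-215-/- library and 421 FPKM in the WT library, and of Cox7c, at 646 FPKM in the miR-215-/- library and 829 FPKM in the WT library. Cox7a2l, which encodes the factor that joins complexes III and IV into supercomplexes, was at 179 and 229 FPKM in the miR-215-/- and WT libraries, a fold of 0.781 (0.731 to 0.834). At the other end, Cox6c, at 798 and 814 FPKM, and Cox5b, at 788 and 819 FPKM, had folds of 0.981 and 0.963 and intervals with upper bounds of 1.04 and 1.0005. Cox8a, Cox6b1 and Ndufa4 lay between, with folds of 0.842, 0.847 and 0.845, close to the ratio of the summed complex, 0.873.

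Most tissue isoforms of complex IV were at or near 0. Cox4i2, the lung and oxygen-sensitive form of subunit IV, was listed at 0 in both libraries, against 1210.5 FPKM in the miR-215-/- library and 1378 FPKM in the WT library for Cox4i1. Cox8b, the muscle and brown fat form of subunit VIII, the testis gene Cox8c and the testis gene Cox7b2 were also listed at 0 in both. Cox6a2, the heart and skeletal muscle form of subunit VIa, rested on about 2 fragments in the miR-215-/- library and 4 in the WT library, and Ndufa4l2, a hypoxia-induced relative of Ndufa4, was listed at 0 FPKM in the miR-215-/- library and 0.136 FPKM in the WT library. Cox6b2, described as a testis form, was at 19.1 FPKM in the miR-215-/- library and 14.97 FPKM in the WT library, about 56 and 43 fragments. Its fold of 1.28 had an interval of 0.841 to 1.94, and it was the 1 member at least 25% higher. Its general partner Cox6b1 was at 1033 FPKM in the miR-215-/- library and 1219 FPKM in the WT library, and that of Cox8b and Cox8c, Cox8a, at 1202 and 1428 FPKM. Ndufa4, the partner of Ndufa4l2, was at 745 and 881 FPKM in the miR-215-/- and WT libraries.

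Cox7a1 was the exception among these isoforms. It encodes the heart and skeletal muscle form of subunit VIIa (chromosome 7, 30184144 to 30186078), and it was at 283 FPKM in the miR-215-/- library and 435 FPKM in the WT library. In the WT library it was thus at the level of Cox7a2, the form found in most tissues, which was at 418 FPKM there and at 402 FPKM in the miR-215-/- library. The fold of Cox7a1 was 0.652 (0.583 to 0.727) and that of Cox7a2 0.960 (0.899 to 1.02). Cox7a1 was therefore lower in relation to its partner isoform in the miR-215-/- library, by more than counting error. Defining markers of striated muscle and brown fat were near 0 in both libraries: Mb, Myh7, Actc1 and Ucp1 were listed at 0 and Ckm was at 0.246 FPKM in the miR-215-/- library and 0.170 FPKM in the WT library. Of the 6 striated muscle markers, only Acta1 reached 1 FPKM, at 32 FPKM in the miR-215-/- library and 5.69 FPKM in the WT library. All 7 smooth muscle markers were higher in the miR-215-/- library, with a median log2 ratio of 1.65 and 4 of the 7 at least 2-fold higher. Their summed levels were 78.1 FPKM in the miR-215-/- library and 43.1 FPKM in the WT library, most of it from Mylk, at 45.9 and 36.9 FPKM. The part of muscle RNA in the Cox7a1 level was not tested.

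**Figure D4:**
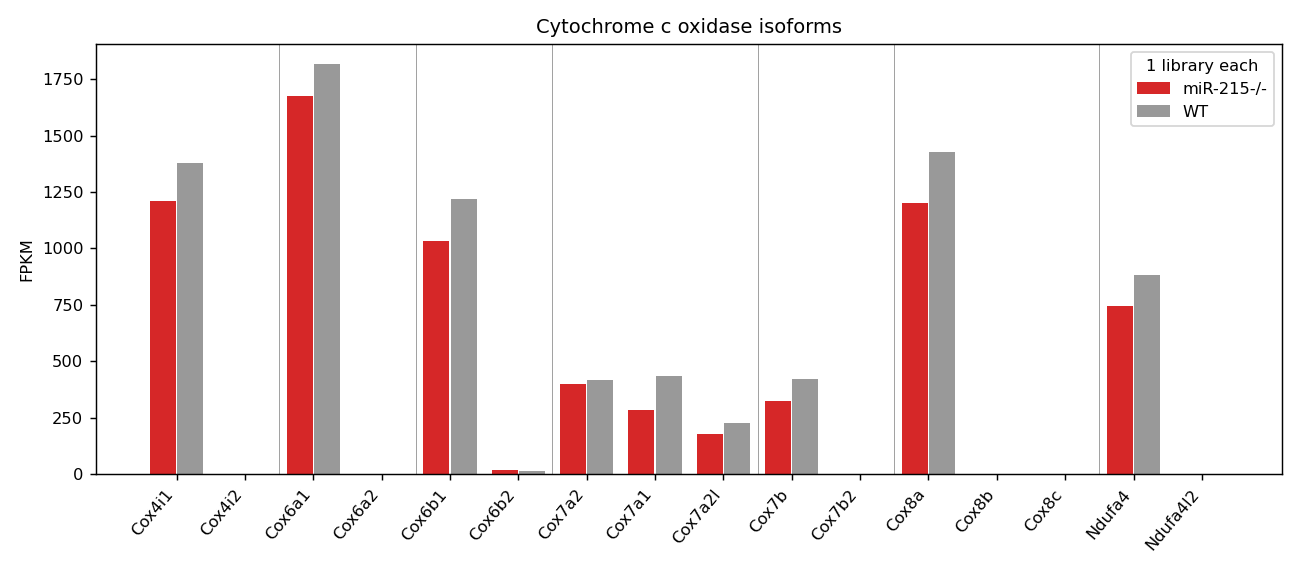
FPKM of the isoforms of cytochrome c oxidase subunits and of Ndufa4 with its relative, in the miR-215-/- library (left bar) and the WT library (right bar), 1 library each, on a linear axis from 0. Cox7a1, at 283 FPKM in the miR-215-/- library and 435 FPKM in the WT library, is the tissue isoform with the tallest bars, below Cox7a2 in the miR-215-/- library and near it in the WT library; Cox4i2, Cox7b2, Cox8b and Cox8c are listed at 0.

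Complex V, the ATP synthase, had the narrowest spread of complexes I, III, IV and V. Its 15 genes were all below 0, from -0.42 to -0.082, with an interquartile range of 0.14. All 15 counting intervals lay below 1 on the deposited scale, the only one on which they were taken. With equal sums 13 of the 15 stayed below 0, Atp5k and Atp5g1 being the exceptions. Summed FPKM were 10191 in the miR-215-/- library and 12023 in the WT library, a ratio of 0.848. In the catalytic F1 head, Atp5b, for the beta subunit that makes ATP, was at 1564.5 FPKM in the miR-215-/- library and 1725 FPKM in the WT library, a fold of 0.907 (0.892 to 0.922). Atp5c1, for the gamma subunit that turns within the head, was at 562 and 753 FPKM in the miR-215-/- and WT libraries, a fold of 0.746 (0.723 to 0.769), and had the lowest ratio of the complex. Atp5e, for the epsilon subunit beside gamma, was next, at 505 and 674 FPKM. The subunits of one head were thus not level with each other.

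In the membrane ring, 3 genes encode the same mature c subunit and differ in their import sequences. Atp5g3 was the most abundant gene of the complex by the mean of both libraries, at 1479 FPKM in the miR-215-/- library and 1859 FPKM in the WT library. Its fold was 0.795 (0.772 to 0.820). Atp5g1 was at 324 and 343 FPKM in the miR-215-/- and WT libraries, a fold of 0.945 (0.916 to 0.974), and Atp5g2 was at 291 and 322 FPKM, a fold of 0.903 (0.842 to 0.969). The most abundant of the 3 was thus the one with the lowest fold. Atp5g1 and Atp5g2 have annotated near-identical copies and Atp5g3 has none at the limit used, which makes this comparison uncertain. Atp5k, for the small subunit e that holds enzymes together in dimers, was at 1058 FPKM in the miR-215-/- library and 1157 FPKM in the WT library, a fold of 0.915 (0.857 to 0.977). The 4 peripheral stalk genes, Atp5f1, Atp5h, Atp5j and Atp5o, had a median of -0.28, and with equal sums -0.14. Outside the symbol rule, the ATPase inhibitor gene Atpif1 was at 758 FPKM in the miR-215-/- library and 1007 FPKM in the WT library. The small associated proteins encoded by Usmg5 and 2010107E04Rik, now named Atp5mpl, were at 868 and 691 FPKM in the miR-215-/- library and at 1234 and 868 FPKM in the WT library. All 3 were at least 20% lower, with a median log2 ratio of -0.41, or -0.28 with equal sums.

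The complexes differed little in their medians. Relative to the median of all genes, the medians were -0.11 for complex I, -0.24 for complex II, -0.21 for complex III, -0.16 for complex IV and -0.17 for complex V. A common scaling factor moves all of them nearly alike and so does not bear on their order. The order was the same with the length trend removed, and it differed without a limit on low values, where complex IV came out at -0.15 and complex I at -0.16. The median of complex II rests on 4 genes. The differences between complexes have no test and were smaller than the spread within a complex, with interquartile ranges of the log2 ratio of 0.25 to 0.26 for complexes I, III and IV.

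The 5 assembly factors of complex I that share the Nduf or Atp5 symbol did not show the shift. They were at 4.49 to 18.4 FPKM in the WT library, with a median log2 ratio of 0.027, 4 of 5 above 0 and no interval apart from 1. Their intervals were wide, and those of Ndufaf1, Ndufaf2 and Ndufaf3 included 0.848, the ratio of the summed members, while those of Ndufaf4 and Atp5sl lay above it. Ndufaf4 was at 5.57 FPKM in the miR-215-/- library and 4.49 FPKM in the WT library, a fold of 1.24 (0.996 to 1.55). Ndufaf2 was the 1 below 0, at 14.4 and 16.3 FPKM in the miR-215-/- and WT libraries. Ndufaf1, at 8.74 and 8.66 FPKM, Ndufaf3, at 16.4 and 16.1 FPKM, and Atp5sl, at 20.5 and 18.4 FPKM, had intervals that included no difference. The other 2 matches were as low: Atp5s was at 5.26 FPKM in the miR-215-/- library and 6.43 FPKM in the WT library, and Cox4nb at 4.64 and 4.67 FPKM. All 35 assembly factors outside the symbol rule were measured, with a median of -0.16, or -0.044 with equal sums. Of the 35, 25 were below 0, beside 56% of all genes. At least 20% lower were 10 and at least 25% higher were 4, beside 20.6% and 14.1% of all genes. Sco2, which delivers copper to complex IV, was at 103 FPKM in the miR-215-/- library and 56.6 FPKM in the WT library. The copper chaperone gene Cox17, the most abundant of them, was at 179.9 FPKM in the miR-215-/- library and 236 FPKM in the WT library. AI462493, now named Uqcc3, for complex III, was at 13.005 and 24.4 FPKM in the miR-215-/- and WT libraries. Assembly factors thus lay on both sides of 0, as did genes at large.

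Enzymes of the tricarboxylic acid cycle, ubiquinone enzymes and mitochondrial ribosomal proteins had medians between that of the members, -0.20, and that of all genes, -0.048. The 13 enzymes of the tricarboxylic acid cycle had a median of -0.13, with equal sums 0.0057, and none passed the limit of 20% or 25%. Citrate synthase, Cs, often used as a measure of mitochondrial mass, was at 542 FPKM in the miR-215-/- library and 476 FPKM in the WT library. Mdh2, the most abundant, was at 1468 and 1422 FPKM in the miR-215-/- and WT libraries. The lowest ratios were those of the succinyl-CoA ligase genes Sucla2, at 116 and 140.5 FPKM, and Suclg1, at 188 and 224 FPKM, the step before complex II. Ubiquinone synthesis and the enzymes that feed electrons into it had a median of -0.097 over 16 genes, with equal sums 0.026, and 3 were at least 20% lower. Among them the ubiquinone factor Adck3, now named Coq8a, was at 8.66 FPKM in the miR-215-/- library and 20.9 FPKM in the WT library, and the sulphide oxidase gene Sqrdl, now named Sqor, was at 96.3 and 151 FPKM. The third was Etfb, for a subunit of the electron transfer flavoprotein, at 159 FPKM in the miR-215-/- library and 208 FPKM in the WT library. The 76 mitochondrial ribosomal proteins had a median of -0.11 and the 80 measured cytosolic ribosomal proteins -0.065. On the deposited scale 10 and 1 were at least 20% lower, against 23 of 85 members and 20.6% of all genes. With equal sums 6 members were, and the ribosomal genes were not counted. After removal of the length trend, the medians relative to all genes were 0.025 and 0.073 for the ribosomal groups and -0.065 for the members. Summed FPKM of the 2 ribosomal groups gave ratios of 0.895 and 0.9498, against 0.848 for the members.

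Regulators of nuclear genes for mitochondria were mixed. The 15 measured ones had a median of -0.10, which equal sums moved to 0.019, and 9 were below 0. The orphan receptor gene Esrra, an activator of respiratory genes and the most abundant, was at 131 FPKM in the miR-215-/- library and 169 FPKM in the WT library. The coactivator genes Ppargc1a and Pprc1 were higher, Ppargc1a at 13.7 and 10.9 FPKM in the miR-215-/- and WT libraries and Pprc1 at 4.39 and 2.16 FPKM. The nuclear receptor gene Ppara was at 18.5 FPKM in the miR-215-/- library and 13.8 FPKM in the WT library. Nrf1, whose factor binds many respiratory promoters, was at 7.305 and 8.49 FPKM in the miR-215-/- and WT libraries.

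Binding motifs in the promoters were read for the subunits that were measured. RefSeq promoter windows of GRCm38.p6, from 250 bases before to 50 after the start, were matched for 75 of the 92 members. The NRF1 motif, GCGC, then any base, then TGCGC, on either strand, was present in 16 of 66 measured subunit genes, 24.2%, and in 23.9% of their 71 windows. It was in 4.603% of all 32851 windows, and in 9.82% of the windows of genes with at least 1 FPKM. An ETS core, CCGGAAG, was in 22.5% of the subunit windows and 17.6% of the windows of genes with at least 1 FPKM, and the YY1 core AAGATGGC in 14.1% and 4.41%. All 3 were searched on both strands, and matches of different motifs could overlap. A match is a run of letters and no measured site. In each complex, the subunit of lowest ratio among those with the NRF1 motif is shown, 5' to 3', with the motif in capitals. The windows are chr15:82354242-82354541, chr13:74350191-74350490 and chr5:115348909-115349208 on the minus strand for Ndufa6, Sdha and Cox6a1, chr9:108936398-108936697 on the plus strand for Uqcrc1, and chr2:10080383-10080682 on the minus strand for Atp5c1.
Ndufa6: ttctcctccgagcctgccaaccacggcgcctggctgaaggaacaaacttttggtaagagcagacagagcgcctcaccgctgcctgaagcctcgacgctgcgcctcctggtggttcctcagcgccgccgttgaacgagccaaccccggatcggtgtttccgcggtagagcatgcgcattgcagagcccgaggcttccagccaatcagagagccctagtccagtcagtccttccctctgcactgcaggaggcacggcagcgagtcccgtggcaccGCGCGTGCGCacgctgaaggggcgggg
Sdha: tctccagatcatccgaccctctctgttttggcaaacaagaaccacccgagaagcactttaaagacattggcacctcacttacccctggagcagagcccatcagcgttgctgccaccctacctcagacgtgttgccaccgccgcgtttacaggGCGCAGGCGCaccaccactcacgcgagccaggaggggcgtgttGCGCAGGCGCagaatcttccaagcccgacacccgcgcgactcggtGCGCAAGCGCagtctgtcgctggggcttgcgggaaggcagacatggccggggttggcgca
Uqcrc1: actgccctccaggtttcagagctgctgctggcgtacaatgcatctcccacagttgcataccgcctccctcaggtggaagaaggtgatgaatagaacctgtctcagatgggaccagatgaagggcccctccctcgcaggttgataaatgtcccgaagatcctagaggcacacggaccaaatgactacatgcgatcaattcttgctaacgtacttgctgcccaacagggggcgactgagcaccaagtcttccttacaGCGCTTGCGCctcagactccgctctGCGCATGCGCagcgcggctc
Cox6a1: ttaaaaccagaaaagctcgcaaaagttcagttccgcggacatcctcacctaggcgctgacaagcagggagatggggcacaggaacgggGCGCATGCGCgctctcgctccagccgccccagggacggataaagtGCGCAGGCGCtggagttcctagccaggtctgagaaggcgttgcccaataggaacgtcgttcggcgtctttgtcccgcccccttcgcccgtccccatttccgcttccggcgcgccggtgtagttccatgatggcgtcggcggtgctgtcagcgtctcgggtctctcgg
Atp5c1: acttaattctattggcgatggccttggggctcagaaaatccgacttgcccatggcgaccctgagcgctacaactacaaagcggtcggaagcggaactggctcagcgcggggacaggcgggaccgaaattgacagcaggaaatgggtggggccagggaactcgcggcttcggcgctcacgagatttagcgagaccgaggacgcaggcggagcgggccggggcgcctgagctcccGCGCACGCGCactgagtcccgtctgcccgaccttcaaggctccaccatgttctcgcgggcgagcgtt
Sdha held 3 motifs, Uqcrc1 and Cox6a1 2 each. The 16 subunits with the motif had a median log2 ratio of -0.30 and a range from -0.66 to -0.034, and the 50 without it had -0.22 and a range from -0.62 to 0.34. The ranges overlapped nearly throughout.

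Markers of cell types in the preparation are given beside these results. In bulk samples, fewer cells of a type and less RNA per cell cannot be told apart. Absorptive villus markers, all 10 measured, were far above all others, with summed levels of 59716 FPKM in the miR-215-/- library and 67293 FPKM in the WT library, and 9 of the 10 were below 0, with a median of -0.14. With equal sums 6 were below 0. Crypt and cycling markers were higher in 9 of 10, with a median of 0.50 and summed levels of 353 FPKM in the miR-215-/- library and 271 FPKM in the WT library. Lgr5, the stem cell marker, was the 1 lower, at 1.01 and 1.91 FPKM in the miR-215-/- and WT libraries. All 5 measured fibroblast markers and 5 of 6 macrophage markers were higher, with sums of 26.9 and 63.0 FPKM in the miR-215-/- library and of 12.3 and 52.2 FPKM in the WT library. T cell markers had 3 of 5 below 0 and sums of 323 FPKM in the miR-215-/- library and 319.8 FPKM in the WT library. Red blood cell and pancreatic acinar markers summed to 14.9 and 46.4 FPKM in the miR-215-/- library and to 74.7 and 80.7 FPKM in the WT library. The part of cell composition in the lower respiratory chain levels was not tested.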

How the data were processed

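Messenger RNA of small intestinal epithelial cells was sequenced in 1 library of miR-215-/- mice and 1 of WT mice. A TruSeq stranded mRNA kit was used, per the labels' protocols. The deposited values are FPKM, 1 per gene, made by the authors; no header names the unit, which was inferred from the values and from Cuffnorm. The genome build mm10, Cuffnorm 2.2.1 and the aligner TopHat2 2.0.13 with Bowtie2 2.2.3 are named in the submitters' processing notes. No source used here gives settings, annotation, use of strand or scaling.

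The libraries listed 15700 (miR-215-/-) and 15445 (WT) genes above 0, with sums of 683884 and 750631 FPKM. From low values of single-transcript genes of at least 500 nt, the worth of a fragment and an offset of 205 and 200 nt were fitted; within 2%, 62.6% and 63.8% of values up to 3 fragments were whole. Fragment numbers use the median transcript length in GENCODE M21 (GRCm38), of RefSeq-linked transcripts where present. The fit and the intervals were tested on simulated counts drawn from the model they assume. That does not test the model on these libraries.

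A gene was kept if either library had at least 1 FPKM (11504 genes), and log2 ratios use a pseudocount of 1, which understates differences of low genes. Python 3.11.15 with numpy, pandas and scipy 1.17.1 was used. The text names members under 1 FPKM, in each complex the most abundant member and the 3 highest and 3 lowest ratios, isoform pairs, the complex II subunits, members 1.5-fold apart, and in each pathway list the most abundant gene and the 2 of largest log2 ratio in size; further members were named after their values were seen. Alternatives changed the pseudocount, the limit on low values, the scaling and transcript length. Members and lists were chosen with earlier results of these data known. One member is counted in the totals and not reported by name.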

Additional observations from a re-analysis of the deposited data

How the results depend on the processing

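No paired analysis was possible because there is 1 library per genotype. With the miR-215-/- values scaled to equal sums, the median log2 ratio was -0.028 for complex I, -0.15 for complex II, -0.082 for complex V and -0.062 for all members. With equal upper quartiles these medians were -0.044, -0.17, -0.098 and -0.079. With the length trend removed they were -0.014, -0.19, -0.076 and -0.065, also relative to all genes, and complex IV was at -0.021. Members at least 20% lower numbered 6 with equal sums, 7 with equal upper quartiles and 6 with the length trend removed, against 23; those at least 25% higher numbered 2, 2 and, with a pseudocount of 5, 0, against 1. Ratios of summed FPKM with equal sums were 0.926, 0.863, 0.895, 0.958 and 0.930 for complexes I to V and 0.931 for all members. With equal upper quartiles they were 0.916, 0.854, 0.885, 0.947 and 0.920, and 0.920 for all members. Without the most abundant member they were 0.763 for complex II, 0.840 for complex III, 0.857 for complex V and 0.992 for the assembly factors, which changed side of 1 from 1.03. The shifts of medians and sums with equal sums and equal upper quartiles follow from the common factor. Those under the other settings depend on the values of the genes.

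Relative to all genes, medians over the 7 settings ranged from -0.16 to -0.014 for complex I, -0.29 to -0.19 for complex II, -0.25 to -0.11 for complex III, -0.18 to -0.021 for complex IV and -0.22 to -0.076 for complex V. Over all genes, 235 were 2-fold lower and 154 2-fold higher as deposited, against 185 and 209 with equal sums, 193 and 199 with equal upper quartiles and 186 and 190 with the length trend removed. Members with a counting interval below 1 numbered 48 to 62 with other transcript lengths, on the deposited scale. They were not counted under the other scalings. No member was 2-fold apart under any of the 7 settings. With 1 library per genotype, depth limits only genes of few fragments, such as Cox6a2. The value of Ndufs5 cannot be read as its level, because the assignment of fragments shared with its near-identical copy is unknown. The part of such fragments in its low value was not tested.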

Other observations

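The members farthest apart were set beside their neighbours on the chromosome. Within 500 kb of Sdhc, 29 other genes had at least 1 FPKM, with a median log2 ratio of -0.062, and 1 of them was 2-fold lower: Apoa2, an apolipoprotein gene, at 2.53 FPKM in the miR-215-/- library and 11.5 FPKM in the WT library. Within 500 kb of Cox7a1, 29 genes had a median of -0.16, and 1 was 2-fold lower: Prodh2, a mitochondrial hydroxyproline dehydrogenase, at 0.123 FPKM in the miR-215-/- library and 13.2 FPKM in the WT library. Within 500 kb of Ndufa6, 17 genes had a median of -0.026 and none was 2-fold apart; the lowest was the cytochrome P450 gene Cyp2d26, at 269.6 FPKM in the miR-215-/- library and 493 FPKM in the WT library. None of the 3 windows held a gene 2-fold higher. These genes were chosen after their values were seen.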
